A study of Homo sapiens with 6 samples.

Results

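The transcripts described here are those of 6 heat shock chaperone genes: HSPA8, HSPA1A, HSP90AA1, HSP90AB1, HSPA5 and HSPD1. Their HuR sites were taken as the intervals that overlap, on the gene's own strand, a fixed span of hg19: chr11:122928197-122933938 (HSPA8, minus strand), chr6:31783291-31785719 (HSPA1A, plus strand), chr14:102547075-102606086 (HSP90AA1, minus strand), chr6:44214848-44221614 (HSP90AB1, plus strand), chr9:127997132-128003609 (HSPA5, minus strand) and chr2:198351308-198364639 (HSPD1, minus strand). These spans held 94 of the 658853 sites in the list made from the 3 HuR replicates combined, and 62 of the 373845 in its p-filtered version. By replicate they held 48 of 186157, 67 of 405048 and 80 of 550681 sites. The genes were chosen by name, with no measured value in the rule.

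The sites come from DO-RIP-seq, in which a lysate is digested with micrococcal nuclease and the RNA fragments that stay with an RNA-binding protein are immunoprecipitated and sequenced. The cells were HEK293, an established human embryonic kidney line, with no treatment or heat shock given in the labels. The HuR group has 3 immunoprecipitations with the antibody 3A2 against HuR, and the negative control group has 3 with antibodies from normal mouse serum. Values of the controls were not analysed here, because the files used are lists of called HuR sites, each with the authors' LOD score above 0. Digests of the lysate were mixed and then split between the antibodies, so the 3 replicates may share cells and nuclease treatment, and each SD below may be technical spread only. No source used here gives the scale or log base of the score, so scores are also given as percentiles within their own list, where 100 is the highest. Read depth per library is unknown, and the lists differ in length, which moves with every count of sites.

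Chaperones of the Hsp70, Hsp90 and Hsp60 families bind unfolded or partly folded proteins and use ATP to help them fold, assemble or cross membranes. Some are made at all times, and others rise sharply when cells are heated or otherwise stressed. HuR, the product of ELAVL1, is an RNA-binding protein of the nucleus and cytoplasm that binds U-rich and AU-rich RNA in introns and 3′ untranslated regions, and it is best known for stabilising the mRNAs it binds.

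The most T-rich stretch of 30 bases in each gene's GENCODE 29 transcript is shown first, because HuR is known for binding U-rich RNA. Called sites also lie at the same distance from the 3′ end in the 5 genes whose stretch is in the last exon. The share of the last exon that is called in each gene is given with that comparison below. The HSPA8 stretch is upstream of its last exon and was not compared. Each stretch is written 5′ to 3′ as DNA, with T for U. Capitals mark runs of TTTTT or longer and the motif ATTTA, searched on the transcript strand only. A match to one may touch or overlap a match to the other. Where several windows of a transcript tie, the one nearest the 5′ end is shown.
HSPA8: tcttgggTTTTTTgtggcttccttcgttat
HSPA1A: tttcctgtgtttgcaatgttgaaaTTTTTT
HSP90AA1: ttttcaaggatgTTTTTctttaTTTTTgtt
HSP90AB1: tattgtggtttattttattttcttcatttt
HSPA5: atgcttccagggaTTTTTTTTTTTTTTTTT
HSPD1: atgcctacagataATTTAttttgtaTTTTT
These windows hold 17 T in HSPA8, 17 in HSPA1A, 20 in HSP90AA1, 21 in HSP90AB1, 20 in HSPA5 and 16 in HSPD1. The HSPA8 window lies upstream of the end of the coding sequence, and the other 5 lie in the 3′ untranslated region. TTTTT occurs in 5.05% and ATTTA in 3.32% of all 30-base windows of 19684 GENCODE transcripts, 1 for each protein-coding gene. Windows with at least as many T make up 0.123% of all windows for HSP90AB1 and up to 1.85% for HSPD1. They occur somewhere in 24.2% of genes for HSP90AB1 and in 73.3% for HSPD1, so a stretch this rich in T is common in mRNAs and not particular to these 6.

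Density of sites differed widely among the 6 genes. HSPD1, the mitochondrial Hsp60 chaperonin, carried 1.73, 2.40 and 3.00 sites per kb of its span in replicates 1, 2 and 3. HSP90AA1, the stress-inducible cytosolic Hsp90, carried 0.0847, 0.186 and 0.203 sites per kb over a span that is mostly empty. In means the order was HSPD1 (2.38 ± 0.638 sites per kb), HSP90AB1 (1.67 ± 0.226), HSPA5 (1.08 ± 0.154), HSPA8 (0.813 ± 0.266), HSPA1A (0.412 ± 0) and HSP90AA1 (0.158 ± 0.0642; SD, n = 3 for each). Over the replicates the ranges of HSPD1 and HSP90AB1 overlap, and so do those of HSPA5 and HSPA8. Within each replicate, however, HSPD1 was above HSP90AB1 and HSPA5 was above HSPA8, 3 of 3 times for each pair. With 3 replicates an exact two-sided sign-flip test cannot go below p = 0.25, and none was run.

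The share of each span that lies inside a site gives another order, because the sites differ in width. It averaged 15.3 ± 5.64% in HSPD1, 11.8 ± 3.41% in HSP90AB1, 9.74 ± 0.594% in HSPA1A, 5.45 ± 1.85% in HSPA5, 3.51 ± 1.61% in HSPA8 and 1.01 ± 0.445% in HSP90AA1 (SD, n = 3 for each). HSPA1A has the fewest sites and still ranks next to HSP90AB1, since its only site is very wide. The last place of HSP90AA1 depends on its long span. Limited to 7 kb from its 3′ end, HSP90AA1 averaged 6.88 ± 2.51% (SD, n = 3), above the means of HSPA5 and HSPA8. HSPD1, HSP90AB1 and HSPA1A overlap in their ranges, as do HSPA5 and HSPA8, although within each replicate HSPD1 was above HSP90AB1 and HSPA5 above HSPA8 here too. All 6 genes lie above the median when the combined list is cut into windows of each gene's own length and only windows with a site are kept. HSPD1 held 3393 called bases, against a median of 200 in 82249 windows, and ranked at percentile 99.04. HSP90AB1 held 1234 called bases, against a median window of 155, at percentile 94.7. The other 4 genes ranked between percentile 69.4 (HSP90AA1) and 81.5 (HSPA5). The windows hold introns, exons and unannotated sequence alike, and the RNA level of these genes in HEK293 was not analysed here.

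**Figure D1:**
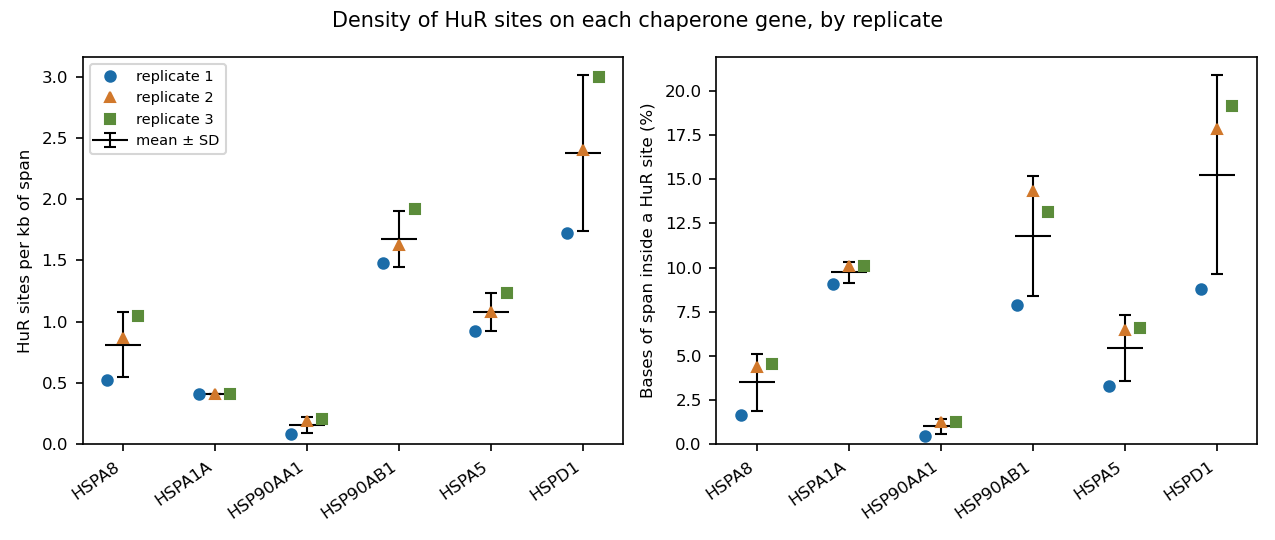
Sites per kb of span (left) and percent of the span's bases inside a HuR site (right) for each chaperone gene, with 1 point per HuR replicate and bars for mean ± SD (n = 3). HSPD1 is highest in both panels on average, and HSP90AA1 is lowest in both when its full span is counted. Replicate 1, the shortest list, gives the lowest or joint lowest value of every gene.

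HSPA8, the constitutive cytosolic Hsp70 that also strips clathrin from vesicles, had 3, 5 and 6 sites in replicates 1, 2 and 3. Its highest combined score was at chr11:122929966-122930030, with LOD 16.3 (percentile 98.1), and the site ranked first in the gene in every replicate. There it scored 8.51, 6.53 and 5.91, at percentiles 92.9, 86.5 and 91.6. The site lies 3909 nt from the 5′ end of the span and 1769 nt from its 3′ end. The next combined site, chr11:122932041-122932125 (LOD 7.56), was present in replicates 2 and 3, and the one after it, chr11:122928921-122928955 (LOD 7.05), in replicate 3 alone. The median HSPA8 site sat below the middle of each list, at percentile 16.9, 28.6 and 37.8 in replicates 1, 2 and 3. Called bases lay in the middle of the gene, and none lay before nt 1814 of the span in any list. Within 1 kb of the 3′ end, replicates 1 and 2 had 0 called bases and replicate 3 had 35.

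HSPA1A, the stress-inducible Hsp70 encoded by a gene with 1 exon, had a single site in each of the 5 lists. The combined site, chr6:31785466-31785715, had LOD 11.1 (percentile 86.3) and stopped 4 nt short of the 3′ end of the span. It scored 4.63, 5.51 and 4.23 in replicates 1, 2 and 3, at percentiles 42.9, 71.1 and 61.4, so it ranked mid-list. Its width was 220, 245 and 245 nt in the replicates and 250 nt in the combined list, where the median site is 50 nt and 1.21% of sites are as wide. Agreement on its bases was the closest of the 6 genes, with 220 of the 245 bases called in any replicate called in all 3 (89.8%). The other 2 named Hsp70 genes gave 21.4% (HSPA8) and 26.4% (HSPA5).

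HSPA1A has a near-identical neighbour, HSPA1B, which RefSeq lists as the next protein-coding gene, and reads from the 2 can be hard to tell apart. Of the 30-base words in the GENCODE transcript of HSPA1A, 74.4% also occur in that of HSPA1B. In the last 250 nt, however, 0 of 221 words occur in a transcript of another gene, and the shared word closest to the 3′ end ends 286 nt before it. The combined site, 250 nt wide and 4 nt from the span end, lies wholly on the unshared side if the span and the transcript end at the same base. The gene has 1 exon, and its transcript is 2483 nt long against 2429 nt for the span, so at least 1 end differs. If the whole of that difference lay at the 3′ end, the far edge of the site would pass into the shared part. A second same-strand site lies downstream at chr6:31797631-31798055 (425 nt wide, LOD 9.15 in the combined list). At an offset of 12255, 12190 and 12200 nt, 205 of 220, 245 of 245 and 245 of 245 called bases of HSPA1A in replicates 1, 2 and 3 fell on called bases there. The called stretch there is wider, so the same count came at every offset up to 12330 nt in replicates 1 and 3 and up to 12335 nt in replicate 2. In replicate 2 all 245 bases also fell on other called bases at offsets of 18825 to 18830 nt, so a full match was not limited to the site about 12 kb downstream. The gene under the downstream site was not assigned, because the annotation at hand is not on hg19.

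HSP90AA1 had 5, 11 and 12 sites in replicates 1, 2 and 3, set at the 2 ends of a span of 59012 nt that reaches a distal start site. Between nt 7201 and nt 53842 of the span no list had a called base. In the combined list 10 of 16 sites lay within 7 kb of the 3′ end, the other 6 lay in the first 7201 nt, and the gap between these groups was 46640 nt. Within 7 kb of the 3′ end the replicates had 5, 8 and 7 sites, which in replicate 1 were all it had. The part next to the 3′ end (the last of 5 equal parts of the span) held 100%, 84.7% and 70.3% of the gene's called bases in replicates 1, 2 and 3.

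The highest HSP90AA1 score was at chr14:102547921-102548030, 846 nt from the 3′ end, with combined LOD 12.7 (percentile 92.1). It scored 10.3, 5.65 and 5.28 in replicates 1, 2 and 3, at percentiles 98.2, 73.8 and 83.8, and led the gene in replicates 1 and 3. In replicate 2 the leading site was the third by combined score, chr14:102550041-102550110 (combined LOD 10.4), which replicate 1 lacked. The second, chr14:102552166-102552245 (combined LOD 10.6), was present in all 3 lists at percentiles 56.4, 40.5 and 60.9. Of the 10 sites near the 3′ end, 5 were present in all 3 replicates, and of the 6 sites near the 5′ end none was, since replicate 1 had no site there; over all combined sites the share in all 3 is 22.9%.

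HSP90AB1, the constitutive cytosolic Hsp90, had 10, 11 and 13 sites over 6767 nt. Its highest combined score was at chr6:44217321-44217410, with LOD 16.6 (percentile 98.4). It scored 7.82, 9.32 and 5.09 in replicates 1, 2 and 3, at percentiles 89.0, 99.5 and 80.6. That site is 4204 nt from the 3′ end, well inside the gene. The second, chr6:44221451-44221620 (combined LOD 12.0), reaches 6 nt past the listed 3′ end and was steadier, at percentiles 84.6, 89.8 and 91.4. The third, chr6:44220506-44220580 (combined LOD 10.0), varied widely, at percentiles 84.5, 35.7 and 8.80. Sites were spread along the whole gene, with 23.0 ± 4.55% of called bases in the first and 24.7 ± 5.53% in the last of 5 equal parts (SD, n = 3). Of its 14 combined sites, 8 recurred in all 3 replicates.

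HSPA5, the Hsp70 of the endoplasmic reticulum known as BiP and a classic target of the unfolded protein response, had 6, 7 and 8 sites. The highest combined score, LOD 16.3 (percentile 98.1), was at chr9:127998356-127998410, 1224 nt from the 3′ end. It scored 9.99, 6.43 and 7.10 in replicates 1, 2 and 3, at percentiles 97.7, 85.2 and 98.3, and led the gene in replicates 1 and 3. The second, chr9:127999651-127999730 (combined LOD 12.4), stood at percentiles 97.2, 92.8 and 56.2. The third, chr9:128002386-128002445 (combined LOD 11.5), was present in replicates 2 and 3 alone. The median HSPA5 site stood at percentile 55.4, 84.1 and 60.4 in replicates 1, 2 and 3, and at 79.3 in the combined list. Of its 9 combined sites 0 were missing from all replicate lists, against 11.0% of all combined sites, a difference of about 1 site.

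HSPD1 had 23, 32 and 40 sites in replicates 1, 2 and 3, and 45 of the 94 combined sites. Its leading site, chr2:198352981-198353040, had combined LOD 21.0 (percentile 99.9) and scored 7.80, 9.71 and 7.48 in the replicates, at percentiles 88.9, 99.7 and 99.1. The second, chr2:198357261-198357370 (combined LOD 20.7), stood at percentiles 99.4, 99.2 and 99.99, the highest average among the chaperone sites present in all 3 lists (99.5 ± 0.418; SD, n = 3). It was the leading HSPD1 site in replicates 1 and 3. The third, chr2:198362956-198363065 (combined LOD 16.8), averaged percentile 95.8 ± 0.615. The 3 sites lie 1673, 5953 and 11648 nt from the 3′ end, so strong sites ran along the whole gene rather than gathering at its end, and the last of 5 equal parts held 16.4 ± 2.13% of called bases (SD, n = 3).

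HSPD1 also held faint sites that recurred. At chr2:198354776-198354840, a site picked after the values were seen, the scores were 0.768, 0.893 and 0.649 in replicates 1, 2 and 3, at percentiles 2.68, 2.72 and 2.06, and the p-filtered list left it out. At the other end, 9 of the 45 combined HSPD1 sites overlapped no site of any replicate (20.0%), against 11.0% of all combined sites.

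**Figure D2:**
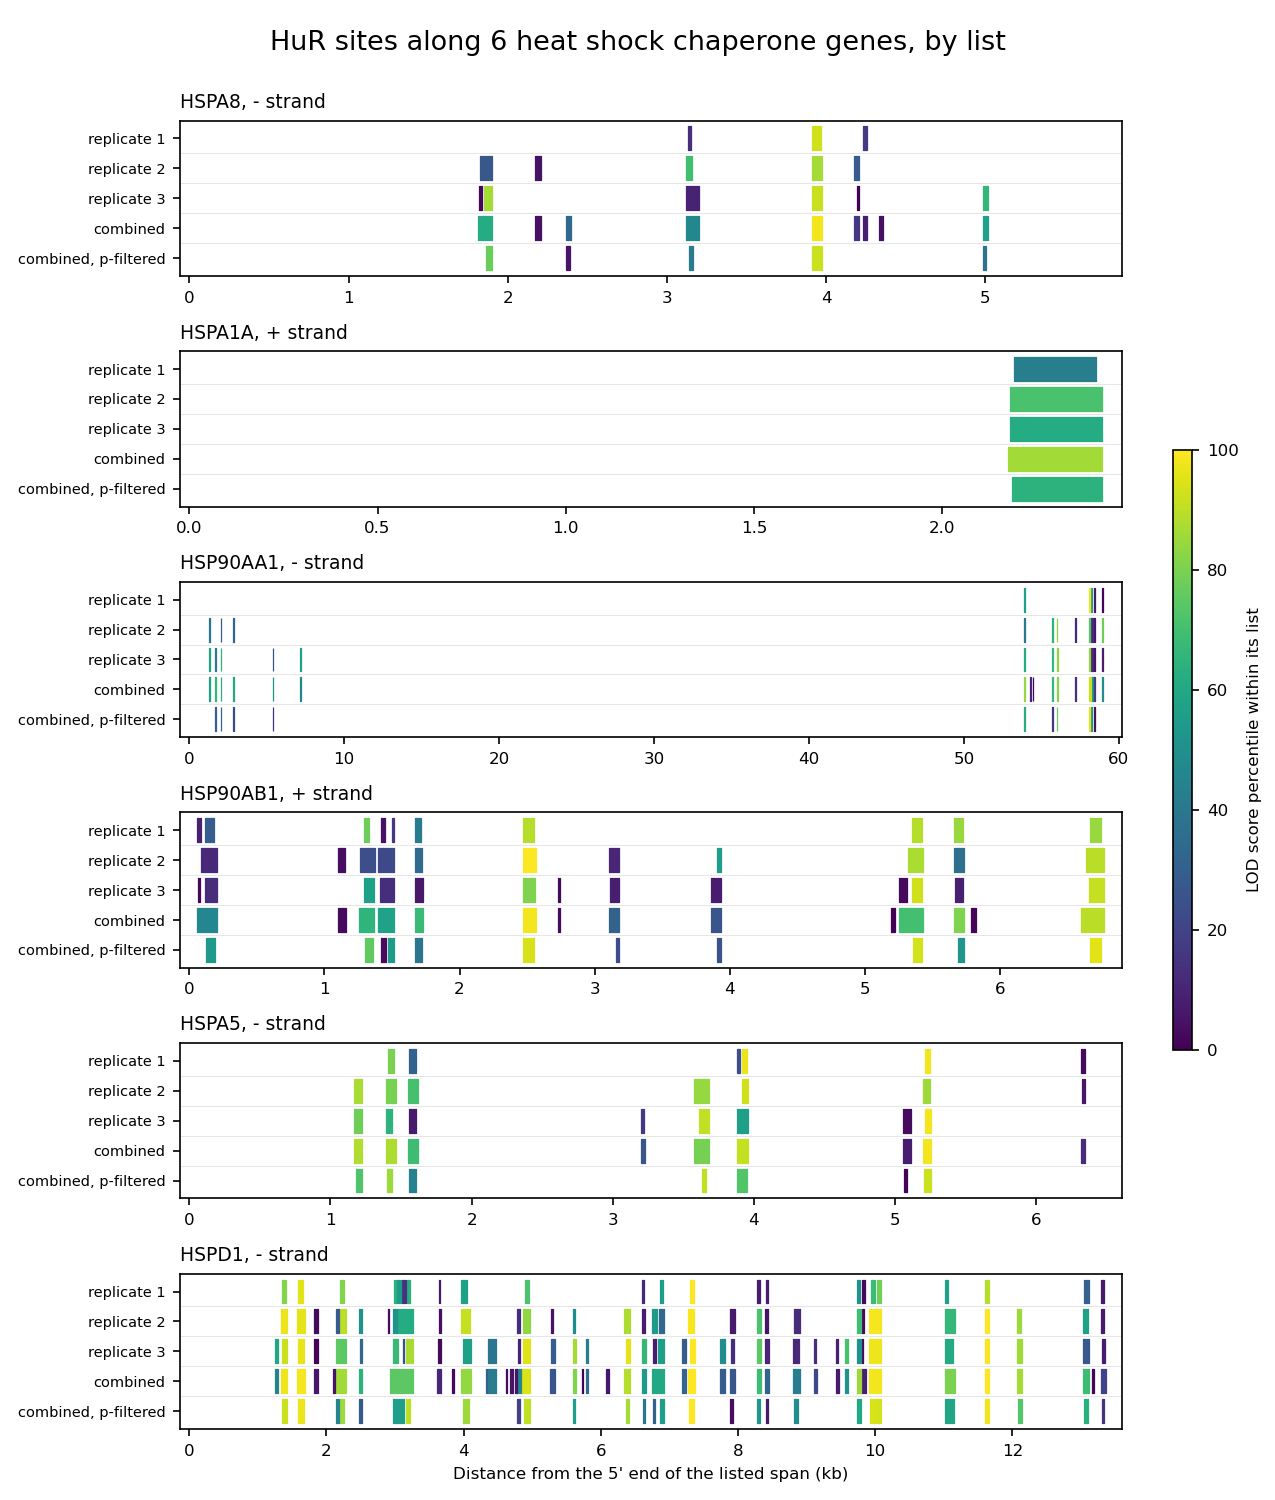
HuR sites along each chaperone gene, 5′ end at the left, with 1 row per list, distance in kb from the 5′ end of the span on the x axis and colour for the percentile of the LOD score within its list. HSPA1A shows 1 wide site at its 3′ end in every list, HSP90AA1 an empty middle, and HSP90AB1 and HSPD1 sites from near the 5′ end to the 3′ end, while HSPA5 has none before nt 1165.

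Across the 3 replicates, 2203 of the 6167 bases called in any of them in the 6 genes were called in all 3 (35.7%). By gene this share was 89.8% in HSPA1A, 44.2% in HSP90AB1, 33.7% in HSPD1, 28.7% in HSP90AA1, 26.4% in HSPA5 and 21.4% in HSPA8. The strongest site of the combined list was also the strongest in the replicate in 13 of 18 cases, in all 3 replicates for HSPA8 and HSPA1A and in 1 for HSPD1.

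A larger share of chaperone sites than of all sites recurred across replicates. Of the 94 combined sites, 39 overlapped a site in all 3 replicate lists (41.5%, 95% Wilson interval 32.1 to 51.6%), against 22.9% of all combined sites. The interval covers counting error only, and sites of 1 gene share a transcript. By gene the counts in all 3 lists were 2 of 9 in HSPA8, 1 of 1 in HSPA1A, 5 of 16 in HSP90AA1, 8 of 14 in HSP90AB1, 4 of 9 in HSPA5 and 19 of 45 in HSPD1. HSPA8, at 22.2%, was the only gene not above the share of all sites. The share of sites in no replicate list was 16.0% (15 of 94), against 11.0% of all combined sites.

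The higher recurrence was seen at both score levels. Among sites above the median score of the combined list, 30 of 46 chaperone sites were in all 3 lists (65.2%), against 41.3% in the rest of the series. Among those at or below it, 9 of 48 were (18.8%), against 4.43%. Chaperone sites were a little wider than the rest, with a median of 60 nt against 50 nt in the combined list, and the part of width in their recurrence was not tested. When each replicate list was cut to its 186157 highest scores, with all combined sites kept, the share in all 3 was 16.0% for the chaperones, against 13.1% of all combined sites, a gap much smaller than with the lists as deposited. When at least 50% of each interval had to be shared, it was 25.5%, against 13.4%. Seen from single replicates, 44 of 48, 40 of 67 and 41 of 80 chaperone sites in replicates 1, 2 and 3 were present in both other lists (91.7%, 59.7% and 51.3%), against 89.1%, 37.8% and 28.4% of the rest of the series.

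**Figure D3:**
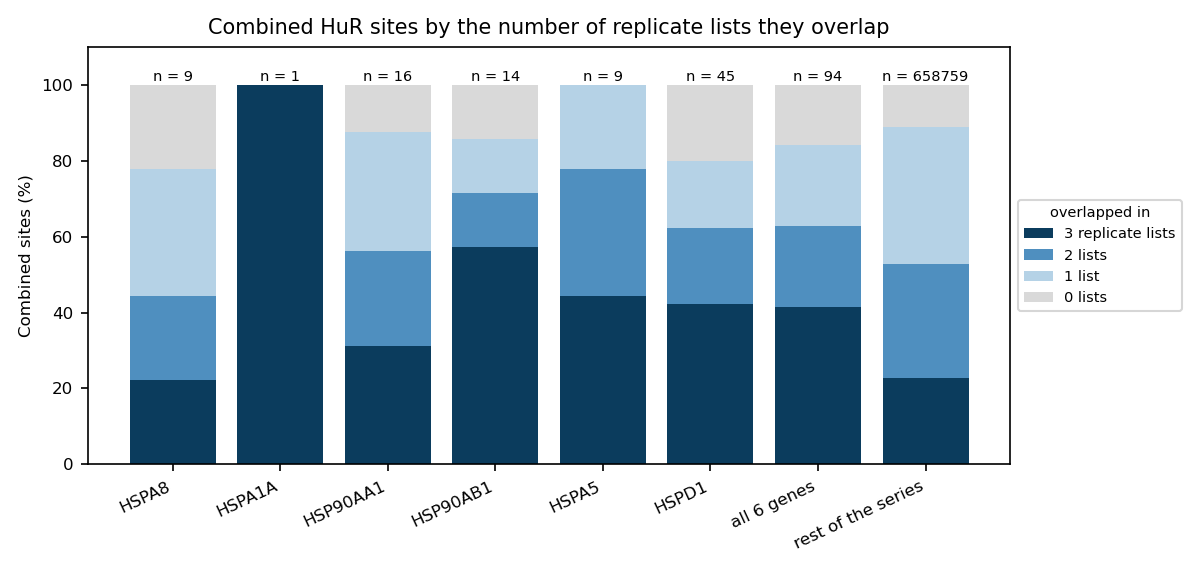
Percent of combined HuR sites that overlap a site in 3, 2, 1 or 0 replicate lists, for each chaperone gene, all 6 genes and the rest of the series, with the number of sites above each bar. The darkest segment, sites in all 3 lists, reaches 41.5% over the 6 genes and 22.9% in the rest of the series.

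Median and high scores lay close to those of the rest, and faint sites made up a larger share. The median chaperone site stood at percentile 55.7, 51.7 and 53.4 in replicates 1, 2 and 3, against a mean of 50.01 for the rest of the lists. In the combined list the median LOD was 6.30 over the 94 chaperone sites and 6.46 over the rest. Sites above percentile 90 numbered 11 (11.7%), against 10.0% of the rest. Sites below percentile 10 numbered 20 (21.3%), against 10.7% of the rest, and 11 of these faint sites were in HSPD1. In replicates 1, 2 and 3 the share of chaperone sites below percentile 10 of their list was 20.8%, 19.4% and 26.3%. The p-filter of the authors kept 57 of the 94 chaperone sites (60.6%, 95% Wilson interval 50.5 to 69.9%), against 52.3% of all combined sites, whose share lies inside that interval. It kept 5 of 9 in HSPA8, 1 of 1 in HSPA1A, 10 of 16 in HSP90AA1, 10 of 14 in HSP90AB1, 7 of 9 in HSPA5 and 24 of 45 in HSPD1. The gap to all combined sites depended on the setting. With LOD above 1 the filter kept 67.1% of chaperone sites, against 54.4%, and with LOD above 2 it kept 73.1%, against 55.9%. With 50% of the site covered it kept 45.7%, against 43.9%.

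The T-rich windows printed above were set beside the sites by distance from the 3′ end, since the transcripts are on another build than hg19. In HSPA1A, HSP90AA1, HSP90AB1, HSPA5 and HSPD1, all 30 of 30 window bases lay at a distance that was called in every one of the 5 lists. In the combined list, called distances made up 10.3%, 37.8%, 41.5%, 6.30% and 25.6% of the last-exon distances compared, in the same gene order. Each window lies within 1 combined site, so its 30 bases are not separate hits. The combined lists come from the same replicates. In HSPA1A the window is 154 nt from the 3′ end, inside its only site. In HSPA5 the window is 1230 nt from the 3′ end, and its long T run sits where the gene's highest-scoring site lies, 1224 nt from the end of the span. In HSP90AA1 the window is 887 nt from the end, within the leading site that begins 846 nt from it. In HSP90AB1 the window is 48 nt from the end, inside the site with the second-highest score. In HSPD1 it is 248 nt from the end, in the site that ends 213 nt from it (combined LOD 8.38). HSPA8 had 0 called bases within the length of its last exon, 431 nt, in any list. Its 3′ untranslated region of 245 nt contains 0 runs of TTTTT and 2 matches to ATTTA. The HSPA8 window lies 2213 nt from the 3′ end of the transcript, upstream of the last exon, and was not compared with the sites.

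The share of T was taken over the last exon of each of the 5 genes other than HSPA8 and averaged with equal weight per gene. This mean was 44.3%, 42.2% and 43.8% at called distances in replicates 1, 2 and 3, against 25.1%, 24.3% and 24.7% at the other distances. The difference averaged 18.7 ± 0.725 percentage points (SD, n = 3 replicates). That SD is over lists laid on the same 5 sequences and does not measure the spread among genes. In replicate 1 the contrast was smallest in HSPD1, at 40.7% against 28.2%, and largest in HSPA1A, at 44.1% against 14.98%. HSPA1A, which has 1 exon, raised the mean difference, since its other distances lie mostly upstream of its 3′ untranslated region. They held 14.98%, 14.61% and 14.61% T in replicates 1, 2 and 3, against 25.6% to 28.2% in the other genes averaged. Its called distances held 44.1%, 44.5% and 44.5% T, close to the 43.2% of its whole 3′ untranslated region. A contrast within that region was not tested. TTTTT was counted at every start base, so 1 long run gives several overlapping matches. In HSPA5 the 1 long T run printed above gave 13 of the 18 matches of the last exon. These 13 lay at called distances in each replicate, where no more than 100 of the 2302 bases did. In HSP90AA1 all 4 matches did, in HSPA1A 8, 9 and 9 of 10, and in HSP90AB1 0, 1 and 1 of 4, so a T-rich site need not hold an unbroken run. This comparison was chosen after the sites were seen, and it rests on the listed span and the GENCODE transcript ending at the same base. With the span end moved 25 nt upstream or downstream the difference was 16.5 and 13.4 points, and with 50 nt it was 9.71 and 7.73 points, so of these 5 positions the ends as listed gave the largest difference.

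**Figure D4:**
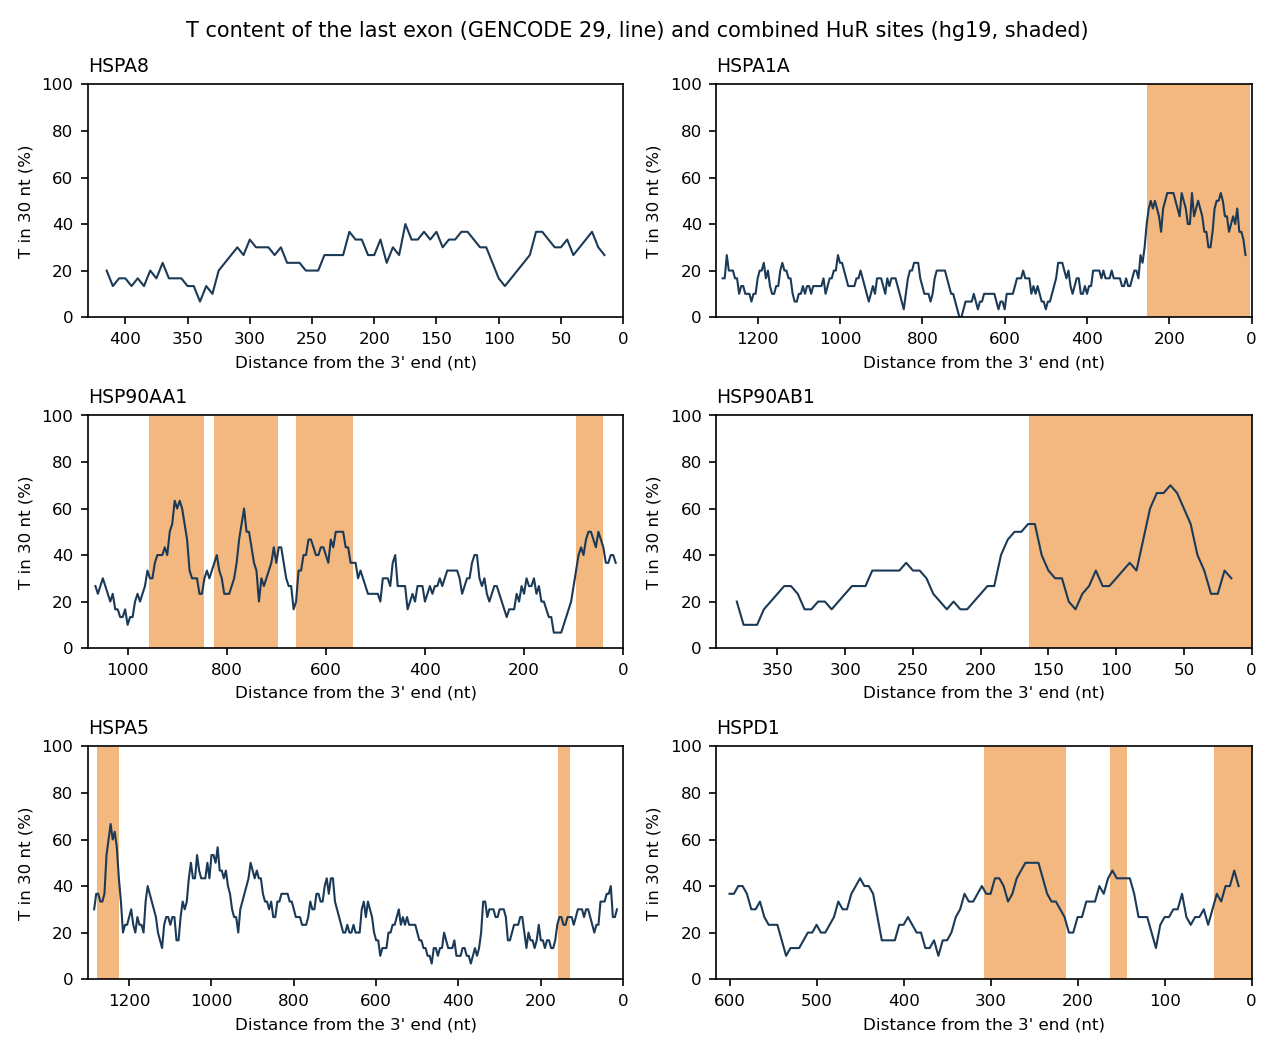
Percent of T in windows of 30 nt along the last exon of each GENCODE transcript (line) against distance from the 3′ end in nt, with distances inside a combined HuR site shaded. In HSPA1A and HSPA5, whose last exons are 2483 and 2302 nt long, the line stops at the window centred 1285 nt from the 3′ end. The highest peaks of HSP90AA1, HSP90AB1, HSPA5 and HSPD1 fall in shaded stretches, the shaded end of HSPA1A is its T-rich part, and HSPA8 has no shading.

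Sites stopped near the ends of the spans. Within 5 kb upstream of the 6 genes there were 0 same-strand sites in every list, and within 5 kb downstream there were 1, 2 and 6 in replicates 1, 2 and 3 and 7 in the combined list. A combined site crosses the 3′ end itself in HSP90AB1 and in HSPD1. None of the downstream sites in the combined list had a score above percentile 49.2, the value of chr2:198350886-198350925 past HSPD1. On the opposite strand the spans held 2, 2 and 6 sites in the replicates, in HSP90AA1 and HSPA5 alone. Those of HSPA5 lay at 344 to 524 nt from its 3′ end in replicate 3. Its strongest, chr9:127997476-127997525, had combined LOD 8.58, but was present in replicate 3 alone and was left out of the p-filtered list. The site at chr9:127997561-127997620 (combined LOD 7.92) was present in all 3 replicates and in the p-filtered list.

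Copies elsewhere in the genome limit some of these values. Of the 30-base words of each GENCODE transcript, the share found in a transcript of another gene was 47.8% in HSPD1, 42.6% in HSPA8, 41.6% in HSP90AB1, 38.6% in HSP90AA1 and 19.4% in HSPA5, and the gene that shares most is a processed pseudogene in each case. In the last 250 nt it was 0 of 221 words in all 6 transcripts. No source used here says how the authors treated reads with several matches, so sites within stretches that hold shared words are uncertain. Only exact words in annotated transcripts were searched, and near-identical or unannotated copies were not counted. In HSPA8, HSP90AB1 and HSPD1 the last shared word ended 246, 285 and 467 nt from the 3′ end. Their 3′ untranslated regions are 245, 285 and 465 nt long, so sharing stopped at about the end of the coding sequence. Whether reads from the last 250 nt match 1 place only was not tested. In HSPA5 the shared words occur in transcripts of 340 other genes, 5 of them pseudogenes, and reach to 358 nt from the 3′ end, inside its 3′ untranslated region of 1739 nt. The spans of the listed sites include introns, whose words were not counted.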

How the data were processed

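The deposited lists give HuR sites of 3 HuR immunoprecipitations, 1 list each and 2 combined lists, as intervals on hg19 (GRCh37) with a LOD score set by the authors. The submitters' processing notes name cutadapt 1.0 and TopHat2 2.0.8. No source used here says how intervals were called or scored. Per the list names, scores are above 0 and 1 combined list was limited at p 0.05.

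Sites of 6 genes were taken by same-strand overlap of at least 1 nt and compared with scipy 1.17.1, pandas 2.3.3 and numpy 2.4.6 in Python 3.11.15. Of 20000 simulated sites, the overlap steps placed 0 wrongly. Read depth is unknown, so no count test was possible. Up to 3 sites per gene were named, in order of combined score. Members, spans and lists were chosen with earlier results of these data known. Transcript sequences are from GENCODE 29 (GRCh38) and gene order from RefSeq, matched by symbol for all 6 genes. Site sequences, protein comparison and other chaperone genes were planned and not run, since they needed hg19 sequence or annotation, or proteins, not used here. Alternatives were other thresholds, overlaps, spans, equal list lengths and leaving out replicates.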

Additional observations from a re-analysis of the deposited data

Results flagged for a closer look

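HSP90AA1 held 4 combined sites on the strand opposite to the gene, a signal outside the sites counted above. The strongest, chr14:102555191-102555275 on the plus strand, had combined LOD 19.8 (percentile 99.7), higher than the LOD of 12.7 at the strongest HSP90AA1 site on the gene's own strand. It was present in all 3 replicates, with LOD 12.4, 8.42 and 6.28 at percentiles 99.7, 98.1 and 94.7 in replicates 1, 2 and 3. It lies 8116 nt from the 3′ end of the HSP90AA1 span. What is transcribed there on the plus strand was not tested.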

How the results depend on the processing

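Of 45 alternative values for the 7 main results, 32 stayed within the spread of the replicates or the interval of the share, 13 moved and 0 reversed. Counts, shares and percentiles cannot change sign, so a reversal of sign was possible for the T difference alone. For single genes 71 of 80 stayed and 9 moved, 8 of them with equal list lengths. Equal list lengths gave 36 sites per replicate instead of 65, 2.69% of bases called instead of 4.50% and 16.0% of sites in all 3 lists instead of 41.5%; by construction fewer sites enter. With 50% of each interval shared, 25.5% of sites were in all 3 lists, and with 50% of the site covered the p-filter kept 45.7%, against 43.9% of all combined sites. With LOD above 2 the p-filter kept 73.1%, against 55.9%, and the median percentile was 59.6. With HSP90AA1 limited to 7 kb, 9.83% of bases were called over the 6 genes and 6.88% in HSP90AA1 itself. Moving the span ends changed the T difference to 16.5 (25 nt upstream), 13.4 (25 nt downstream), 9.71 (50 nt upstream) and 7.73 points (50 nt downstream). Where not stated, the cause was not tested. Leaving out 1 replicate gave 57.5 to 73.5 sites, 4.02 to 5.40% of bases, percentiles of 52.6 to 54.6, 39.2 to 43.5% of called bases in the last of 5 equal parts of the span (mean of the 6 genes, 41.6% with all), T differences of 18.5 to 19.2 points, and 41.5 to 61.7% of sites in all remaining lists. The 61.7% is without replicate 1, where the share over all combined sites was 51.2%. No paired analysis was possible because no values of the negative control samples were analysed here. Read depth is unknown, so faint sites cannot be told from thin coverage, and the lists differ in length.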
